A study of Mus musculus with 30 samples.

Results

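The comparison set the equal-weight mean of ChowCR, 5% P, 10% P and 15% P against Chow in the hippocampus of mice, and asked which transcripts moved in 1 direction under all 4 diets. It used all 30 libraries of the series, 24 from the 4 diets and 6 from Chow. The animals were 15 months old, and each diet group held 3 males and 3 females that the series describes as biological replicates. RNA came from the whole hippocampus of each animal. Going by the title of the series, CR stands for caloric restriction and P for dietary protein. The labels give neither the strain nor what the diets contain, and name no genetic change in any group. ChowCR names both chow and restriction, and the P diets carry protein levels of 5, 10 and 15 percent in their names.

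The hippocampus forms new memories and is among the brain regions that decline with age. Eating less, or eating less protein with unrestricted access, is known to lower insulin and mTOR signalling and to shift fuel use in many tissues of the mouse. Synaptic transmission in the hippocampus runs on glutamate from principal neurons and on GABA from interneurons, and both are packed into vesicles by dedicated transporters.

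Expression is given in FPKM, a count of fragments divided by the length of the transcript and the size of the library. Rows are transcripts, so a gene's isoforms can trade places while the gene stays level. The 30 libraries listed between 19681 and 21853 transcripts each, and their depth is unknown because no read counts were given. The test took transcripts listed in every library at a mean of 1 FPKM or more, which were 4447 from 3725 gene symbols. Differences are on the log2(FPKM + 0.5) scale, diets minus Chow, a scale that makes changes of low transcripts look smaller. Of 5 listed markers of hippocampal neurons, 4 were among the transcripts tested, and none of the 6 markers of neighbouring tissue was. Being tested needed a value in every library, so this does not show that neighbouring tissue was absent. Camk2a, the abundant kinase of forebrain excitatory neurons, was at 571 ± 60.9 FPKM in the 4 diets (SD, n = 24) and 541 ± 49.2 FPKM in Chow (SD, n = 6). Transcripts from fewer cells of a type and from less RNA per cell cannot be told apart in whole tissue.

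No transcript passed the threshold for the mean of the 4 diets against Chow. With limma and Benjamini-Hochberg adjustment over the 4447 transcripts, 0 had an adjusted p under 0.05, which is 0 percent, and the smallest adjusted p was 0.0968. At an unadjusted p under 0.05 there were 273 transcripts, 6.14 percent of those tested, of which 169 were higher in the 4 diets (3.8 percent) and 104 were lower (2.34 percent). Of the 4447, 49.8 percent were higher in the 4 diets.

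The 4 differences from Chow had 1 sign in 1853 transcripts, 41.7 percent, with 944 higher under all 4 diets (21.2 percent) and 909 lower under all 4 (20.4 percent). The 4 differences share the same 6 Chow libraries, so their signs are not independent: of 5 groups that are alike, any 1 has the lowest or the highest mean in 40 percent of cases. Diet by diet, the unadjusted p was under 0.05 in 6.81 percent of transcripts for ChowCR, 5.44 percent for 5% P, 6.27 percent for 10% P and 5.26 percent for 15% P. After adjustment 2 passed for ChowCR (limma, 0.045 percent), Map1s and the predicted Gm15525, and 0 passed for each P diet (0 percent). A stricter reading asks that each diet differ by itself, and 26 transcripts (0.585 percent) had an unadjusted p under 0.05 in each of the 4, with 18 higher (0.405 percent) and 8 lower (0.18 percent). None passed when the largest of the 4 p-values was adjusted over all transcripts (limma, 0 percent). Among the 26, GENCODE called 19 protein coding, 6 had at least 1 value of exactly 0, and 25 were counted with 1 sign in both sexes. The count of 25 includes Gm4459, whose male libraries were all at 0, so it had no difference in males.

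The ranges of the groups overlapped for every transcript. In 0 transcripts did all 24 libraries of the 4 diets lie above the highest Chow library or below the lowest (0 percent), and in 20 at least 18 of the 24 did (0.45 percent). The 30 transcripts with the smallest p and 1 sign in all 4 diets, predicted genes aside, are described next by what their proteins do. Of these 30, 20 were higher in the 4 diets and 10 lower, with sizes between 0.16 and 2.04 on the log2 scale and adjusted p between 0.0968 and 0.51 (limma). They were picked for these p-values, so their counts carry no test.

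**Figure D1:**
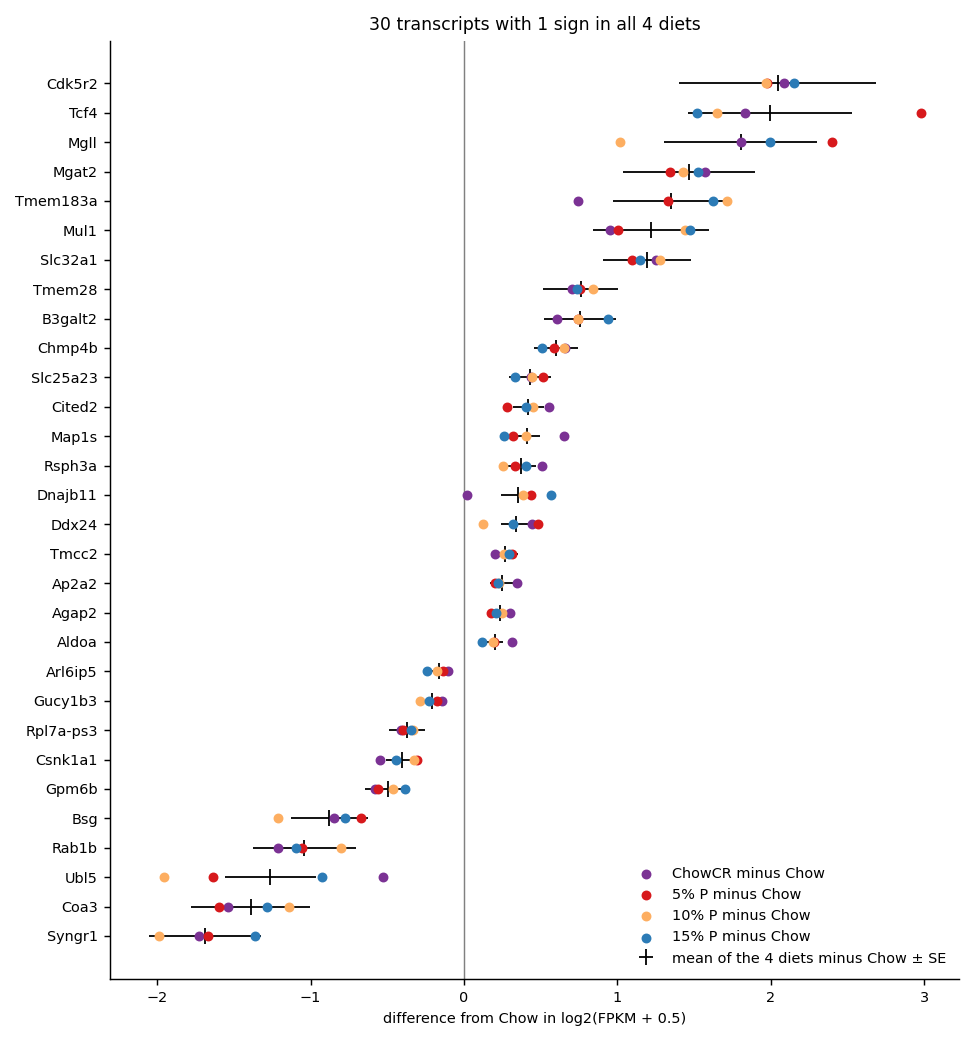
Differences from Chow in log2(FPKM + 0.5) for the 30 leading transcripts, with 1 coloured point per diet and a black bar for the mean of the 4 diets with its SE. The 4 points of a transcript lie on 1 side of 0 by the rule that chose them, most tightly for Rpl7a-ps3 and most widely for Tcf4, and none of the 30 passed the threshold.

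Map1s, a microtubule-associated protein, had the smallest adjusted p of the 30. It lay between 8.46 and 16.3 FPKM with a median of 12.2 in the 24 libraries of the 4 diets, against 7.94 to 11.2 FPKM with a median of 8.84 in the 6 Chow libraries. Of the 24, 18 were above every Chow library and none was below them. The mean was 12.5 ± 1.89 FPKM in the 4 diets (SD, n = 24) and 9.25 ± 1.28 FPKM in Chow (SD, n = 6), a log2 difference of 0.41 (SE 0.09, limma adjusted p = 0.0968). By diet, the difference was 0.65 in ChowCR, 0.32 in 5% P, 0.40 in 10% P and 0.26 in 15% P, and by itself it passed for ChowCR (limma, adjusted p = 0.0060). ChowCR libraries averaged 14.7 ± 1.27 FPKM, against 11.2 ± 1.84 FPKM for 15% P libraries (SD, 6 each). The spread among the 4 diets did not pass (limma, adjusted p = 0.76). The Map1s transcript has no other isoform in the table, and GENCODE places another version of it at chr8:70905932-70917527, plus strand, in GRCm38. Leaving out 1 library of 15% P, replicate 3, brought Map1s to an adjusted p of 0.046 (limma), and leaving out the whole of 15% P brought it to 0.048. Over the 30 fits that leave out 1 library, its adjusted p reached 0.31 and was under 0.05 in 1 (limma).

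Its close relative Map1b, which stabilises growing axons, had 21 of 24 libraries above every Chow library. It averaged 38.5 ± 25.2 FPKM in the 4 diets (SD, n = 24) and 22 ± 0.77 FPKM in Chow (SD, n = 6), with a log2 difference of 0.58, a standard error of 0.32 and an adjusted p of 0.86 (limma). The spread over the 24 libraries was far wider than over the 6 of Chow. Of 13 measured genes for microtubules and their associated proteins, 11 were higher in the 4 diets and 2 lower, with a median of 0.06, and 6 were higher under all 4 diets. None passed. Over all genes, with 1 transcript each, 50 percent were higher and 21 percent were higher under all 4 diets.

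Among genes of synaptic transmission, the transcript of Slc32a1, which encodes the transporter that loads GABA into vesicles, is taken first. It ranged from 7.07 to 26.9 FPKM with a median of 19 in the 4 diets, against 2.83 to 18.3 FPKM with a median of 9.91 in Chow. The Chow libraries fell apart into 3 between 2.83 and 5.48 FPKM and 3 between 14.4 and 18.3 FPKM, while 23 of the 24 diet libraries were at 14.4 FPKM or more. The log2 difference was 1.19 (SE 0.29, limma adjusted p = 0.16), and it was nearly level between the diets, at 1.25 in ChowCR, 1.10 in 5% P, 1.28 in 10% P and 1.14 in 15% P. Its adjusted p ran from 0.053 to 0.44 as single libraries were left out (limma). The transcript is the only one of Slc32a1 in the table, at chr2:158610767-158615748, plus strand.

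Other GABA genes had smaller differences than Slc32a1, and the gap between them was not tested. Gad1 and Gad2, the enzymes that make GABA, had log2 differences of -0.02 and 0.02, and the GABA-degrading Abat had 0.49 (SE 0.27, limma adjusted p = 0.86). Of 11 measured genes of GABA synthesis and receptors, 6 were higher and 5 lower, with a median of 0.01, and none passed. The interneuron markers gave 3 higher and 2 lower of 5, with a median of 0.02, and they include Slc32a1, Gad1 and Gad2 themselves.

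Syngr1, an integral membrane protein of synaptic vesicles, was the transcript with the lowest values relative to Chow among the 30. It ranged from 6.90 to 60.4 FPKM with a median of 8.19 in the 4 diets, against 8.45 to 70.9 FPKM with a median of 50.9 in Chow. In Chow, 4 libraries were between 45.1 and 70.9 FPKM and 2 were at 8.45 and 11 FPKM. In the 4 diets, 23 libraries were at 16.7 FPKM or less and 1, of 15% P, was at 60.4 FPKM. The log2 difference was -1.69 (SE 0.37, limma adjusted p = 0.11), and by diet it was -1.72 in ChowCR, -1.67 in 5% P, -1.99 in 10% P and -1.36 in 15% P. Summed over the 3 transcripts of Syngr1 in the table, the gene was at 14.7 ± 10.9 FPKM in the 4 diets (SD, n = 24) and 46.1 ± 27 FPKM in Chow (SD, n = 6), a log2 difference of -1.44 with a standard error of 0.33. Without the high 15% P library the adjusted p of the transcript was 0.011 (limma). Without Chow replicate 4, a low Chow library, it was 0.013, and without Chow replicate 3, the other low one, 0.033. Of the 30 fits that leave out 1 library, those were the 3 that passed, and the adjusted p reached 0.30 (limma).

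Of 18 measured genes of the synaptic vesicle, 11 were higher and 7 lower in the 4 diets, with a median of 0.06, and none passed. Vamp1, a vesicle protein of fusion, was at 32.1 ± 8.59 FPKM in the 4 diets (SD, n = 24) and 42 ± 11.5 FPKM in Chow (SD, n = 6), which is -0.44 on the log2 scale (limma, adjusted p = 0.87). On the receiving side, Agap2 encodes a GTPase that enhances PI3 kinase and Akt signalling. It ranged from 134 to 182 FPKM with a median of 153 in the 4 diets, against 115 to 157 FPKM with a median of 131 in Chow. All 24 diet libraries were above the median of Chow, and 9 were above its highest library. The log2 difference of Agap2 was 0.23 (SE 0.06, limma adjusted p = 0.22), and its transcript, the only one in the table, is at chr10:127078907-127093169, plus strand. Gria1, a subunit of AMPA glutamate receptors, was at 81.3 ± 22.8 FPKM in the 4 diets (SD, n = 24) and 68.8 ± 26 FPKM in Chow (SD, n = 6), with an adjusted p of 0.90 (limma). Of 15 measured genes of the postsynaptic density and glutamate receptors, 9 were higher and 6 lower, with a median of 0.07, and none passed.

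**Figure D2:**
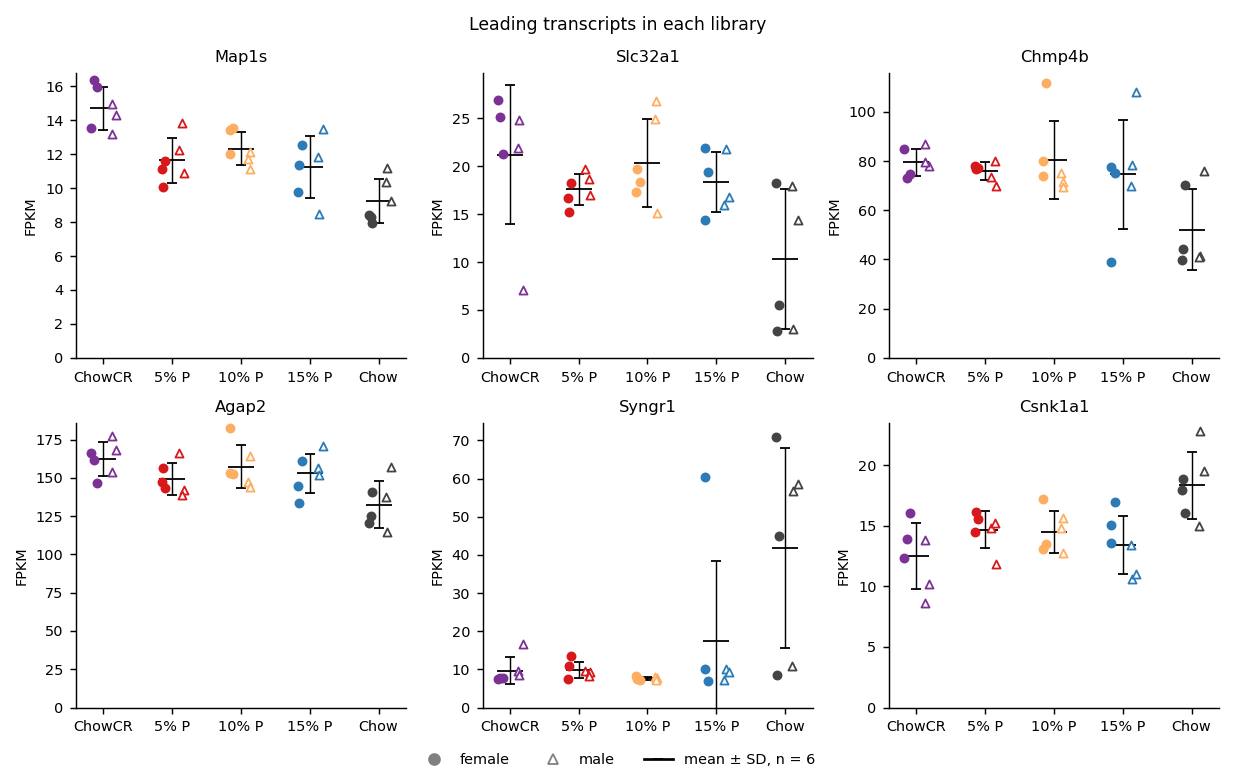
FPKM of 6 leading transcripts in each library, by diet, with filled circles for females, open triangles for males and a bar for the mean ± SD of 6 libraries, cut at 0 where it would pass below. Map1s and Agap2 vary evenly around their means, while Slc32a1, Chmp4b and Syngr1 fall into a low and a high band within Chow, such as 2.83 to 5.48 and 14.4 to 18.3 FPKM for Slc32a1.

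Membrane trafficking gave several of the 30. Chmp4b, a subunit of the ESCRT-III complex that pinches off membranes in endosomes and in autophagy, ranged from 38.9 to 112 FPKM with a median of 77.1 in the 4 diets, against 39.9 to 76.1 FPKM with a median of 42.7 in Chow. In Chow, 4 libraries were between 39.9 and 44.1 FPKM and 2 were at 70.4 and 76.1 FPKM, while 23 of the 24 diet libraries were at 69.3 FPKM or more. The log2 difference was 0.60 (SE 0.14, limma adjusted p = 0.16), from 0.51 in 15% P to 0.66 in ChowCR. Chmp4b is at chr2:154657018-154694785, plus strand. Without 15% P replicate 2, the low diet library, its adjusted p was 0.044 (limma). That was the only 1 of the 30 fits leaving out 1 library to pass, and its adjusted p over them reached 0.37 (limma).

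Rab1b, a GTPase of transport from the endoplasmic reticulum to the Golgi, had its values in the same kind of bands. It ranged from 12.1 to 57.1 FPKM with a median of 14.4 in the 4 diets, against 14.1 to 55.9 FPKM with a median of 51.6 in Chow. In Chow, 4 libraries were above 51 FPKM and 2 were at 14.1 and 22 FPKM, and 3 of the 24 diet libraries were above 56 FPKM. The log2 difference was -1.04 (SE 0.33, limma adjusted p = 0.51). The Chow libraries that stood apart were not the same from transcript to transcript: they were replicates 3 and 4 for Syngr1, 2 and 5 for Chmp4b and Rab1b, and 3 and 5 for Coa3. FPKM of a transcript depends on how reads were divided among isoforms and similar genes, and what part this has in the bands of Syngr1, Chmp4b, Rab1b, Coa3 and Slc32a1 was not tested. Summed per gene, Chmp4b was at 0.60 and Coa3 at -1.38 on the log2 scale, close to their transcripts, and Rab1b and Slc32a1 have 1 transcript each in the table. Ap2a2, a subunit of the adaptor for clathrin-coated vesicles, was at 37.6 ± 3.54 FPKM in the 4 diets (SD, n = 24) and 31.9 ± 5.3 FPKM in Chow (SD, n = 6), which is 0.25 on the log2 scale (limma, adjusted p = 0.51).

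Arl6ip5, a membrane protein of the endoplasmic reticulum that restrains a neuronal glutamate transporter, had 20 of 24 diet libraries outside the range of Chow. It ranged from 62.1 to 78.9 FPKM with a median of 70.3 in the 4 diets, against 75.2 to 85.4 FPKM with a median of 77.6 in Chow. All 20 were below every Chow library. The log2 difference was small, at -0.16 (SE 0.04, limma adjusted p = 0.23), and it was -0.10 in ChowCR, -0.13 in 5% P, -0.17 in 10% P and -0.24 in 15% P. All 15 genes of autophagy and the lysosome that were measured, Chmp4b among them, gave 5 higher and 10 lower, with a median of -0.07, and none passed.

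Cited2, which binds the coactivators CBP and p300 and limits the response to low oxygen, was at 7.82 ± 1.15 FPKM in the 4 diets (SD, n = 24) and 5.77 ± 1.22 FPKM in Chow (SD, n = 6). All 24 diet libraries of Cited2 were above the median of Chow, and the log2 difference was 0.42 (SE 0.10, limma adjusted p = 0.16). Csnk1a1, casein kinase 1 alpha, which marks beta-catenin for degradation, ranged from 8.66 to 17.2 FPKM with a median of 13.8 in the 4 diets, against 15 to 22.8 FPKM with a median of 18.4 in Chow. Of the 24, 16 were below every Chow library, and the log2 difference was -0.41 (SE 0.10, limma adjusted p = 0.18). Summed over its 9 transcripts, Csnk1a1 had a log2 difference of -0.20 with a standard error of 0.07. Gucy1b3, the beta subunit of the receptor for nitric oxide, was at 35.8 ± 3.13 FPKM in the 4 diets (SD, n = 24) and 41.5 ± 4.81 FPKM in Chow (SD, n = 6), with a log2 difference of -0.21 (limma, adjusted p = 0.46).

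In energy metabolism, Aldoa, an aldolase that splits a sugar phosphate in glycolysis, averaged 740 ± 55.4 FPKM in the 4 diets (SD, n = 24) and 646 ± 80.3 FPKM in Chow (SD, n = 6). Its log2 difference was 0.20 (SE 0.05, limma adjusted p = 0.23), and the 4 diets gave 0.31 in ChowCR, 0.19 in 5% P, 0.19 in 10% P and 0.12 in 15% P. Of 6 measured genes of glycolysis, 5 were higher and 1 lower, with a median of 0.19, and none passed. Under all 4 diets, 4 were higher and 1 was lower, where 21 and 20.5 percent of all genes were. Slc25a23, a mitochondrial carrier that exchanges ATP-Mg for phosphate, was at 112 ± 16.7 FPKM in the 4 diets (SD, n = 24) and 86.1 ± 24.9 FPKM in Chow (SD, n = 6), with 17 of 24 diet libraries above every Chow library (limma, adjusted p = 0.51). Coa3, which helps to assemble cytochrome c oxidase, ranged from 5.73 to 51.1 FPKM with a median of 7.96 in the 4 diets, against 7.40 to 55 FPKM with a median of 42.4 in Chow. Its log2 difference was -1.39 (SE 0.39, limma adjusted p = 0.29), at -2.32 in females and -0.46 in males. Mul1, a ubiquitin ligase of the outer mitochondrial membrane, was likewise uneven between the sexes, at 2.08 in females and 0.35 in males, and in neither gene did the difference between the sexes pass (limma, adjusted p = 0.68 for each).

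Of 32 measured genes of oxidative phosphorylation, 12 were higher and 20 lower, with a median of -0.01. Ndufs4, a subunit of complex I, was at 23.3 ± 10 FPKM in the 4 diets (SD, n = 24) and 37 ± 12.6 FPKM in Chow (SD, n = 6), a log2 difference of -0.69 (limma, adjusted p = 0.60). None of the 32 passed. Stk11, the kinase LKB1 that activates the energy sensor AMPK, was at 13.8 ± 1.58 FPKM in the 4 diets (SD, n = 24) and 11.4 ± 2.6 FPKM in Chow (SD, n = 6), which is 0.29 on the log2 scale (limma, adjusted p = 0.60), and 3 of 5 measured sirtuins and energy sensors were higher, with a median of 0.25.

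For several of the 30 the gene as a whole did not follow the transcript. Of the 30, 13 were the only transcript of their symbol in the table. Of the other 17, the sum over the gene's transcripts kept a share of at least 0.5 of the log2 difference in 11 and a smaller share, or the other sign, in 6. The transcript of Tcf4, a transcription factor of neuronal development, had a log2 difference of 2.0 with a standard error of 0.54, while the sum over its 39 transcripts was at 38.8 ± 12.8 FPKM in the 4 diets (SD, n = 24) and 36.5 ± 8.5 FPKM in Chow (SD, n = 6), a difference of 0.06. For Mgll, which breaks down the endocannabinoid 2-arachidonoylglycerol, the transcript was at 1.80 and the gene at -0.47. For Bsg, which escorts monocarboxylate transporters to the membrane, the transcript was at -0.88 and the gene at -0.09. For Gpm6b, a proteolipid of neurons and oligodendrocytes, the transcript was at -0.50 and the gene at 0.05. The transcript of Ubl5, a ubiquitin-like protein of splicing, was below every Chow library in 18 of 24 diet libraries, with a log2 difference of -1.26, and the gene was at -0.36 with a standard error of 0.45.

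Exact zeros set the size of a pair of others. Mgat2, a Golgi enzyme that builds complex N-glycans, lay between 6.45 and 10.7 FPKM in the 4 diets and in Chow was listed at 0 in 2 libraries and between 7.54 and 8.77 FPKM in 4. Cdk5r2, an activator of the neuronal kinase Cdk5, lay between 19.4 and 61.3 FPKM in the 4 diets and in Chow was listed at 0 in 2 libraries and between 22.5 and 41.7 FPKM in 4. The libraries at 0 were replicates 3 and 6 for Mgat2 and 1 and 4 for Cdk5r2, and an exact 0 can be a failed estimate. Among the remaining transcripts of the 30, Dnajb11, a chaperone of the endoplasmic reticulum, was at 18.5 ± 3.34 FPKM in the 4 diets (SD, n = 24) and 14.6 ± 3.97 FPKM in Chow (SD, n = 6). Its log2 differences were 0.02 in ChowCR, 0.44 in 5% P, 0.38 in 10% P and 0.56 in 15% P, and the spread among the diets had an adjusted p of 0.57 (limma). Rsph3a, Tmcc2, Ddx24, B3galt2, Tmem28 and Tmem183a were higher by 0.27 to 1.35, and the ribosomal pseudogene Rpl7a-ps3 was at -0.37 (limma, adjusted p = 0.18 to 0.51 for the 7).

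Groups of genes tied to nutrition were read next, with lists and members chosen with earlier results of these data known. Of 7 measured genes of the response to amino acid shortage, 5 were higher and 2 lower, with a median of 0.10. Under all 4 diets, 4 were higher, where 21 percent of all genes were. Slc3a2, the heavy chain of an amino acid exchanger, was at 25.5 ± 3.72 FPKM in the 4 diets (SD, n = 24) and 18.6 ± 7.92 FPKM in Chow (SD, n = 6), which is 0.66 on the log2 scale (limma, adjusted p = 0.60). Ddit3, a stress transcription factor, was at 9.06 ± 1.98 FPKM in the 4 diets (SD, n = 24) and 7.02 ± 4.51 FPKM in Chow (SD, n = 6), with an adjusted p of 0.78 (limma). Atf4 and Asns, the central factor and one of its classic targets, had log2 differences of -0.09 and -0.07.

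Of 9 measured genes for chaperones of the endoplasmic reticulum and the unfolded protein response, 8 were higher and 1 lower, with a median of 0.10. The list's median was -0.12 in ChowCR, 0.12 in 5% P, 0.14 in 10% P and 0.36 in 15% P. Under all 4 diets, 2 of its members were higher, where 21 percent of all genes were. Xbp1, which switches on genes of the secretory pathway under stress, averaged 18.7 ± 3.49 FPKM in the 4 diets (SD, n = 24) and 15.4 ± 3.52 FPKM in Chow (SD, n = 6), with an adjusted p of 0.70 (limma). Of 10 cytosolic heat shock genes, 7 were higher and 3 lower, with a median of 0.18. Hspa1a, the inducible Hsp70, had log2 differences of 0.73 in ChowCR, 1.42 in 5% P, 0.93 in 10% P and 1.55 in 15% P (limma, adjusted p = 0.78 for their mean), and 4 of its 30 values were exactly 0.

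Insulin and IGF signalling gave 1 higher and 5 lower of 6 measured, with a median of -0.06, and mTOR and translation control gave 4 higher and 2 lower of 6, with a median of 0.05. Neither list had a member with an unadjusted p under 0.05. Of 8 measured genes of the circadian clock, 1 was higher and 7 lower, with a median of -0.15, and 4 were lower under all 4 diets, where 20.5 percent of all genes were. Dbp, a clock output factor, had a log2 difference of -0.32, and Hlf, its relative, was at 16.8 ± 3 FPKM in the 4 diets (SD, n = 24) and 18.7 ± 3.82 FPKM in Chow (SD, n = 6), with an adjusted p of 0.91 (limma). The time of day at which tissue was taken is not given in the labels. Of 11 immediate early genes, 3 were higher and 8 lower, with a median of -0.10, and Egr1, an activity-induced transcription factor, was at -0.71 (SE 0.39, limma adjusted p = 0.86).

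The remaining lists had no member past the threshold. The proteasome gave 8 higher and 4 lower of 12 (median 0.02), ketone and fatty acid oxidation 3 and 3 of 6 (-0.02), cholesterol synthesis and uptake 2 and 5 of 7 (-0.03), and antioxidant enzymes 2 and 5 of 7 (-0.02). The glucocorticoid response gave 4 higher and 3 lower of 7 (0.10), poly(A) binding and splicing factors 6 and 4 of 10 (0.04), MHC class I and inflammation 1 and 2 of 3 (-0.07), and cytosolic ribosomal proteins 4 and 0 of 4 (0.18). Sc5d, an enzyme of cholesterol synthesis, was the one in these lists with the largest shortfall at an unadjusted p under 0.05, at 5.42 ± 1.05 FPKM in the 4 diets (SD, n = 24) and 8.16 ± 4.23 FPKM in Chow (SD, n = 6), with an adjusted p of 0.58 (limma).

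**Figure D3:**
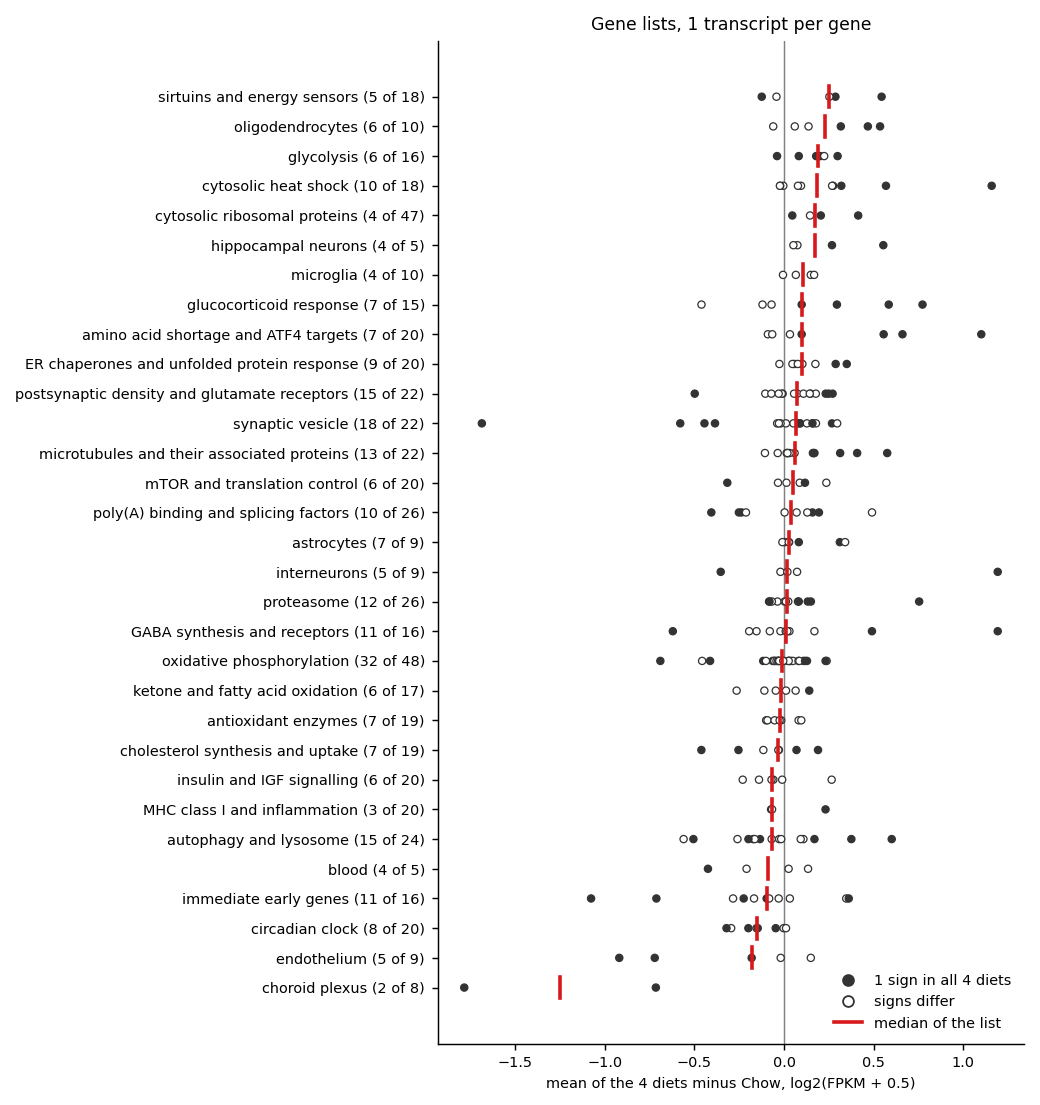
Log2 differences, mean of the 4 diets minus Chow, of the measured members of each list, with 1 point per gene, filled where the 4 diets share a sign, and a red bar at the list's median. The medians lie between -0.18 and 0.25 except for choroid plexus, whose 2 members, Ttr and Enpp2, give a median of -1.25.

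By transcript, no marker of a cell type passed. Hippocampal neurons gave 4 higher and 0 lower (median 0.17), astrocytes 6 and 1 (0.03), oligodendrocytes 5 and 1 (0.23), microglia 3 and 1 (0.11), endothelium 1 and 4 (-0.18) and blood 2 and 2 (-0.09). Cldn11, a tight junction protein of myelin, was 0.47 higher on the log2 scale in the 4 diets (limma, adjusted p = 0.90), and Cnp, a myelin enzyme, had 0.14. Summed per gene symbol, which brought in markers that some libraries did not list, hippocampal neurons gave 4 higher and 1 lower (median 0.07), interneurons 4 and 5 (-0.02), astrocytes 7 and 2 (0.08), oligodendrocytes 6 and 3 (0.06), microglia 7 and 3 (0.13), endothelium 2 and 5 (-0.18), choroid plexus 0 and 7 (-0.76) and blood 2 and 2 (-0.09). None of these sums passed over all libraries, and single markers differed far more than the medians.

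Slc1a3, a glutamate transporter of astrocytes, and Csf1r, a growth factor receptor of microglia, were picked from these sums after their values were seen. Slc1a3 ranged from 19.7 to 181 FPKM with a median of 145 in the 4 diets, against 20 to 46.5 FPKM with a median of 22 in Chow. All 6 libraries of 10% P were at 148 FPKM or more, while in 5% P the 3 males were at 141 FPKM or more and the 3 females at 25.2 FPKM or less. In ChowCR the males were at 133, 25.3 and 53.6 FPKM and the females at 23.2, 24.4 and 23.2 FPKM. In 15% P the males were at 156, 158 and 148 FPKM and the females at 19.7, 172 and 23.2 FPKM. What part the division of reads among isoforms has in these bands of Slc1a3 was not tested. The log2 difference of Slc1a3 was 1.55 (SE 0.39, limma adjusted p = 0.20), at 0.55 in ChowCR, 1.29 in 5% P, 2.68 in 10% P and 1.70 in 15% P. It was 0.68 in females and 2.43 in males, where it passed when males were tested alone (limma, adjusted p = 0.036), but the difference between the sexes did not pass (limma, adjusted p = 0.80). Csf1r was at 0 in 1 of 24 diet libraries and at 9.48 to 24.8 FPKM in the rest, against 0 in 3 of 6 Chow libraries and 13.5 to 19.6 FPKM in the rest (limma, adjusted p = 0.32).

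The choroid plexus, a neighbour of the hippocampus in dissection, was uneven between libraries. Ttr, its carrier of thyroid hormone, ranged from 7.16 to 7513 FPKM with a median of 60.7 in the 4 diets, against 18.7 to 6558 FPKM with a median of 1588 in Chow, and the groups overlapped over nearly the whole range (exact permutation test on log2 values, two-sided, p = 0.28, adjusted 0.32). The number of transcripts listed averaged 20889 in the 4 diets, from 19681 to 21853, and 21119 in Chow, from 20717 to 21595 (exact permutation test, two-sided, p = 0.32). With log2 Ttr as a covariate the mean of the 4 diets again gave 0 calls (limma).

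The 4 diets did not differ among themselves past the threshold either. With Chow out of the contrast, 0 transcripts passed (limma, 0 percent) and 249 had an unadjusted p under 0.05 (5.6 percent). Within the 30, the smallest p values of this kind were those of Ubl5 (0.0030), Dnajb11 (0.0039) and Map1s (0.0078), all unadjusted. For Ubl5 the log2 differences from Chow were -0.53 in ChowCR, -1.64 in 5% P, -1.95 in 10% P and -0.93 in 15% P.

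The test of whether the difference of the 4 diets from Chow differed between females and males called 2 transcripts, 0.045 percent of those tested. At an unadjusted p under 0.05 there were 256 (5.76 percent). The 2 called are predicted genes, and neither call is support, for the reasons given below. Gm4459, a processed pseudogene on chromosome 7, was listed at 0 in all 24 libraries of the 4 diets and in the 3 Chow males, and at 42.4, 40.2 and 53.5 FPKM in the 3 Chow females. Gm10031, on chromosome 1, was at 8.11 to 20.2 FPKM in the 24 libraries of the 4 diets, and in Chow at 9.72, 10.1 and 10.1 FPKM in the females and at 0 in the 3 males. Gm4459 reached the mean of 1 FPKM through the 3 Chow females alone, and within its other groups it had no spread, so no p is given for it. For Gm10031 the test of the sexes gave an adjusted p of 1.25e-11 (limma). Its 3 Chow males were all at 0 and had no spread, so this p is not support. With values above 0 in every library neither gene was tested. Both patterns rest on exact zeros, which can be failed estimates, and Gm4459 is a processed pseudogene, whose reads can belong to its parent gene.

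**Figure D4:**
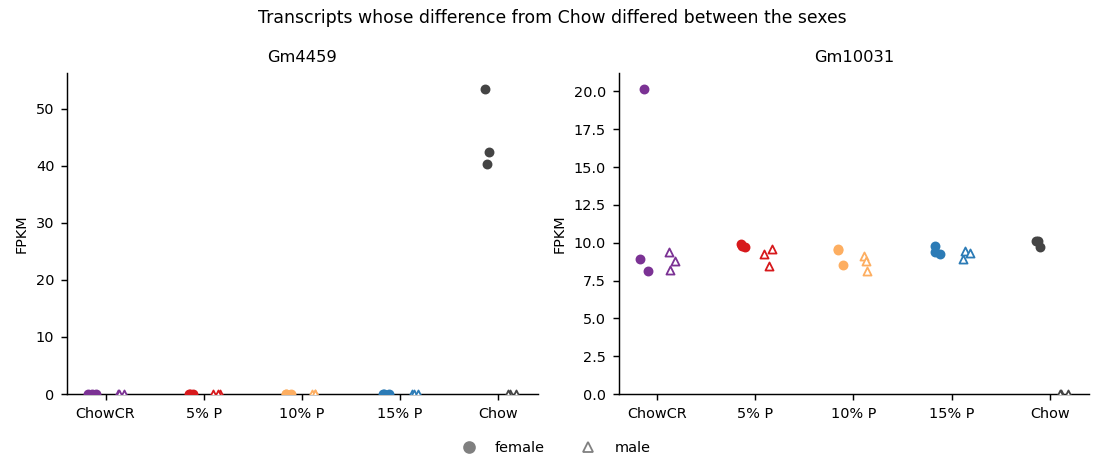
FPKM of Gm4459 and Gm10031 in each library, by diet, with filled circles for females and open triangles for males. Gm4459 is above 0 only in the 3 Chow females, at 40.2 to 53.5 FPKM, and Gm10031 is at 0 only in the 3 Chow males.

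Summing FPKM over the transcripts of a gene symbol, with unlisted transcripts at 0, brought in genes that some libraries did not list. Of 8130 genes so tested, 1 passed for the mean of the 4 diets (limma, 0.0123 percent) and 507 had an unadjusted p under 0.05 (6.24 percent). The gene was Pcdhga10, a gamma protocadherin on chromosome 18. Clustered protocadherins are adhesion proteins whose combinations give neurons a surface identity, and the gamma genes each join their own first exon to shared last exons, so reads from the shared exons can be split between them. Pcdhga10 has 1 transcript in the table and was named here after its value was seen.

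Pcdhga10 ranged from 2.54 to 6.51 FPKM in ChowCR, from 0 to 5.07 in 5% P, from 1.95 to 4.14 in 10% P and from 3.11 to 4.10 in 15% P. In Chow it was at 1.67 and 0.63 FPKM in 2 libraries and not listed in 4, while 23 of the 24 diet libraries listed it. The unlisted diet library was replicate 5 of 5% P, and all other diet libraries were above every Chow library. The log2 difference was 2.24 (SE 0.32, limma adjusted p = 0.0015), at 2.46 in ChowCR, 1.82 in 5% P, 2.26 in 10% P and 2.43 in 15% P. Its mean was 3.23 FPKM in the 4 diets and 0.38 FPKM in Chow, so it reached the filter's mean of 1 FPKM through the diet libraries. Its p-values, here and in the fits that follow, come after that selection and are no independent support. The size hangs on the pseudocount, since most Chow values are 0, and was 3.69 with 0.1 and 1.66 with 1, with adjusted p of 0.0060 and 0.0012 (limma). Over the 30 fits that leave out 1 library it stayed between 2.07 and 2.51, with adjusted p up to 0.018 (limma).

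The largest of its 4 p-values by diet was 0.00012 unadjusted and 0.997 when adjusted over all genes, so Pcdhga10 did not pass as a change in each diet by itself. It passed neither in females alone, at 2.38 (limma, adjusted p = 0.14), nor in males alone, at 2.11 (limma, adjusted p = 0.42). With genes kept that were above 0 in every library, Pcdhga10 was not among those tested. Whether a library lists a transcript was tested apart, and for Pcdhga10 Fisher's exact test gave p = 0.0026 unadjusted. Of 36548 rows tested for listing, 0 passed after adjustment (0 percent) and 759 had an unadjusted p under 0.05 (2.08 percent).

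The gamma family was also read as a whole, and its groups overlapped. The sum over the 34 transcripts of 21 gamma protocadherin symbols was at 121.8 ± 9.89 FPKM in the 4 diets (SD, n = 24) and 119.4 ± 11 FPKM in Chow (SD, n = 6; exact permutation test, two-sided, p = 0.60). Of the 19 other gamma genes tested as sums, 7 were higher and 12 lower, between -0.80 and 0.59 on the log2 scale, and none passed (limma, adjusted p = 0.79 to 0.99).

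**Figure D5:**
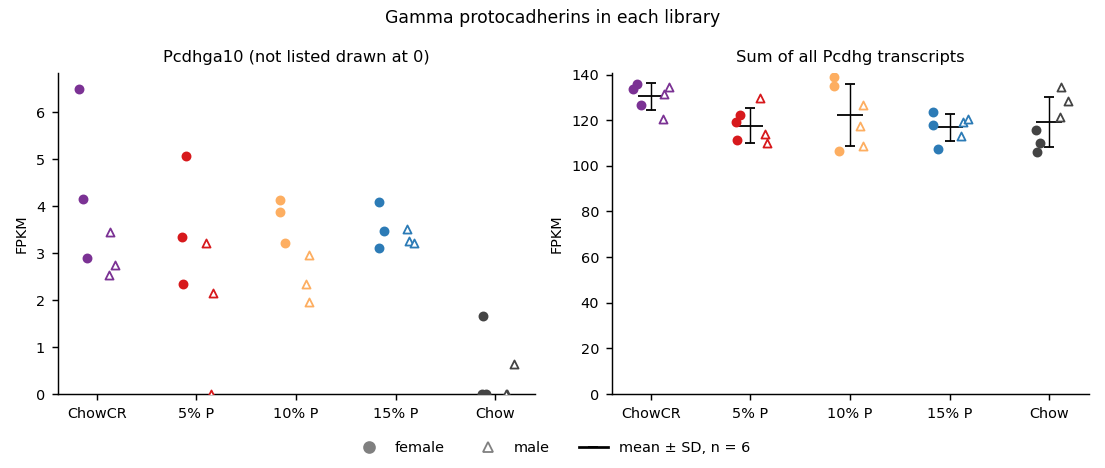
FPKM of Pcdhga10 (left, libraries that did not list it drawn at 0) and of all gamma protocadherin transcripts summed (right) in each library, by diet, with filled circles for females and open triangles for males, and bars on the right for the mean ± SD of 6 libraries. Pcdhga10 is at 1.95 FPKM or more in 23 of 24 diet libraries and at 1.67 FPKM or less in Chow, while the family sum overlaps between all groups.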

How the data were processed

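The authors deposited FPKM per transcript and library. The submitters' processing notes name the build mm10 and, with no roles, TopHat2 (2.0.14), bcl2fastq (2.18.0), DESeq2 (1.16.1), featureCounts (1.4.6) and StringTie (1.2.4). Per the labels' protocols, libraries were stranded, poly(A)-selected and read from one end. Whether quantification used strand is not stated there. FPKM keeps no depth, so no interval or floor is given.

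The table has 46109 rows, 43994 with Ensembl identifiers and 2115 with a location as name, and 6858 had a value in all 30 libraries. Coordinates come from GENCODE M21 (GRCm38), matched without version, for 4397 of the 4447 tested transcripts. Libraries were grouped by the diet in their titles, with sex from the labels.

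Values were tested as log2(FPKM + 0.5) in limma (3.58.1, R 4.3.3), with a mean for each diet, a term for sex and a variance trend in eBayes. Tests were two-sided, p-values were adjusted by Benjamini-Hochberg, and the threshold was 0.05. P-values measure only the spread between these animals. Exact permutation tests used scipy 1.17.1. Lists used the transcript of highest mean FPKM of each gene.

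The named transcripts are the 30 of smallest p with 1 sign in all 4 diets, the 10 with the smallest largest p, those past a threshold for sex, and 2 per list. Predicted genes were counted, 9 and 6 being passed over in the first and second of these, and others named outside it were chosen after their values were seen. The comparison, lists and rules were chosen with earlier results of these data known.

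The fits were tested on simulated data with known changes. No row came from mitochondrial genes, so a planned mitochondrial share was not made and 2 library measures were adjusted together.

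Alternatives were other pseudocounts, filters, scalings and fits, sums per gene, Ttr as covariate, each sex, each diet left out and each library left out. Leaving out location-named rows from the sums per gene was decided after seeing the result with them, and further settings of these sums were added after seeing the data.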

Additional observations from a re-analysis of the deposited data

Results flagged for a closer look

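Libraries far from the other 5 of their diet were looked for in the 10 transcripts with the smallest largest p over the 4 diets, in Gm4459, Gm10031 and Pcdhga10 and in 2 library measures, 75 groups of 6 libraries in all. Chance marks about 1 group in 20 this way, and 11 libraries were found. Low ones were Slc32a1 at 7.07 FPKM in ChowCR replicate 1, Csnk1a1 at 11.8 FPKM in 5% P replicate 3, Tmem28 at 0.423 FPKM in Chow replicate 4 and Pcdhga10 at 0 in 5% P replicate 5, and 10% P replicate 2 listed 19978 transcripts. High ones were Syngr1 at 16.7 FPKM in ChowCR replicate 1 and 60.4 FPKM in 15% P replicate 4, Chmp4b at 111.9 FPKM in 10% P replicate 4, Coa3 at 51.1 FPKM in 10% P replicate 5, Gm10031 at 20.2 FPKM in ChowCR replicate 2 and log2 Ttr at 11.3 in 5% P replicate 2. ChowCR replicate 1 stood apart in Slc32a1 and in Syngr1, each other library in 1 item, and none was left out of the values of the report.

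The test of females minus males in the response to the 4 diets called Gm4459, at -6.51 on the log2 scale, and Gm10031, at -4.25. Gm4459 reached the mean of 1 FPKM through the Chow females alone, so its call is not support for a difference between the sexes. Gm10031 was at 0 in every Chow male and had no spread there, so its call is not support either. These sizes rest on values of exactly 0 and moved with the pseudocount, to -8.82 and -6.51 with 0.1 and to -5.52 and -3.32 with 1.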

How the results depend on the processing

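No paired analysis was possible because the numbers in the titles are not shared between diets. For the mean of the 4 diets, which gave 0 calls, the count was 1 with FPKM summed per gene symbol (Pcdhga10), 2 in males alone (Gm6382 and Gm10031), 1 in females alone (Gm4459), 3 without 15% P (Syngr1, Map1s and Chmp4b) and 2 with the 24 libraries as 1 group (Gm4459 and Gm10031). It was 0 to 4 as each library was left out, with calls without any of the 6 Chow libraries and without 15% P replicates 2, 3 and 4. Among the added gene sums it was 2 with location-named rows, the second being a row on chromosome 18 listed in 0 diet and 4 Chow libraries, beside a row ending 2 bases later listed in 3 diet and 0 Chow libraries. It was 2 in males alone (Gm10031 and Slc1a3), 4 in females alone (Gm4459, Grb2, Pomgnt2 and Sema4f), and 3 to 10 without each Chow library. It was 1 with a pseudocount of 0.1 or 1, a Ttr covariate or median-ratio rescaling, and 0 for genes above 0 in every library. For 1 direction in all 4 diets (0 calls), there was 1 in males alone (Gm10031), 1 in females alone (Gm4459), and 1 and 2 for gene sums in males and in females, and 0 to 0 as libraries were left out. For the spread among diets (0 calls) there were 3 in males, 1 in females and 0 to 1 as libraries were left out. For the test by sex (2 calls) there were 1 with a mean FPKM of at least 5, 0 with values above 0 in every library, 4 for gene sums and 2 to 4 as libraries were left out. The cause of these moves was not tested, beyond the smaller sets tested. Gm4459 was above 0 only in Chow females, so its calls in these counts are not support. The calls of Gm10031 rest on Chow males at exactly 0 and are not support either. The sign of named transcripts turned with gene sums for Mgll (-0.47) and Gpm6b (0.047), and for Enpp2 with Ttr as covariate (0.037) and in males alone (0.049). In females alone it turned for Gm10031 (-0.0077), Eif4ebp2 (-0.22), Prkag2 (-0.17), Acadvl (0.015), Psmd8 (-0.20), Rps3 (-0.046), Rps20 (-0.17), Prdx3 (-0.0064), Prdx5 (0.00085), Apoe (-0.063), Gfap (-0.039), Cnp (-0.12), Ctss (-0.12), Tmem119 (-0.0024) and Hbb-bs (0.24). As single libraries were left out it turned for Gfap (-0.0039 to 0.41), Rps20 (-0.028 to 0.23), Prdx3 (-0.060 to 0.17), Ctss (-0.041 to 0.10) and Prdx5 (-0.26 to 0.015), each without 1 or more of Chow replicates 1, 3, 5 and 6. Of other values of named transcripts, 1847 kept direction and side of the threshold and 7 came to pass it, and as single libraries were left out 2562 kept both and 12 came to pass. Depth is unknown, so its limit on low transcripts could not be given.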
